A study of Mus musculus with 8 samples.

Results

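The clustered protocadherins are cell-surface proteins encoded by the alpha, beta and gamma gene clusters, which lie one after another on mouse chromosome 18. The 58 genes considered here were chosen by name, and their probes were found through the RefSeq accession given for each spot on the array. Of the 58 genes, 35 had a matched probe, out of 20660 genes with a probe in all, and these 35 genes had 38 of the 55681 probes. The 35 were 7 of 14 alpha genes, all 22 beta genes and 6 of 22 gamma genes. The other 23 genes are not analysed here: Pcdha1, Pcdha2, Pcdha3, Pcdha5, Pcdha6, Pcdha7 and Pcdha10 of the alpha cluster, and all gamma genes except Pcdhga1, Pcdhga5, Pcdhga9, Pcdhga10, Pcdhgb1 and Pcdhgc5.

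In the alpha and gamma clusters each variable first exon has its own promoter and is joined to constant exons shared by the whole cluster, while each beta gene is a single exon with no constant part. In neurons most of these promoters are chosen at random in each cell, in a way that depends on DNA methylation, CTCF and cohesin, whereas the C-type genes at the end of the alpha and gamma clusters are expressed more uniformly. The proteins form combinations that bind identical combinations on other cells, and they are known for self-recognition of neurites and for neuron survival.

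RNA was measured on 8 single-colour arrays of neurospheres, floating aggregates grown from neural stem cells. Cells were taken from the ganglionic eminence at E14.5, and each sample was quaternary neurospheres grown out of 1 embryo's brain, per the labels and design text. There were 3 arrays of floating HP1gamma KO neurospheres and 2 of adherent HP1gamma KO neurospheres, both called KO here, and 3 of floating wild-type (WT) neurospheres. HP1gamma is the product of Cbx3 and a heterochromatin protein of the nucleus, and the series title places H3K27me3 at neuronal genes under its deficiency as the subject. All groups were grown with EGF and bFGF. The labels' protocol names low-attachment plates throughout, also for the adherent samples, and nothing used here describes the adherent culture, the KO allele or the strain in more detail. The labels do not say whether floating and adherent KO samples share an embryo.

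Levels are log2 signals minus the 75th percentile of the same array, and a probe's level cannot be set against another probe's. A spot was detected where the scanner software called it well above background, which held for 44.5% to 55.4% of non-control spots per array. All 9 neural stem cell markers examined, among them Nes and Sox2, were above background on every array. The deleted gene went against the label of 2 arrays. Cbx3 had levels of -1.86, -2.76 and -1.75 on KO floating 1, 2 and 3 and of -2.03 and 5.91 on KO adherent 1 and 2, against 5.83, -2.17 and 5.95 on WT floating 1, 2 and 3. The arrays labelled KO adherent 2 and WT floating 2 thus stood with the opposite genotype, and each result is given with and without them. Nothing used here places the Cbx3 probe relative to the deletion.

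The probes differ in what they can tell apart. In the RefSeq annotation of GRCm38.p6, 13 of 14 alpha genes and 21 of 22 gamma genes end within 10 bases of a common end, whereas the 22 beta genes have 22 distinct ends. A probe near the 3′ end of an alpha or gamma accession therefore reads RNA of the whole cluster, and one in a variable exon reads 1 isoform. The files used here give no probe sequence or position within the transcript, so which kind a probe is was not determined. Beta genes are close paralogs, and hybridization of RNA from one to another's probe was not tested.

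Detection differed between the clusters. Over the 8 arrays, 16 genes were above background on every array, namely 2 alpha genes, 13 beta genes and Pcdhga9 of the gamma cluster. Another 15 were above it on some arrays and 4 on none, which were Pcdha11, Pcdhac1, Pcdhb1 and Pcdhga5. The number of the 35 genes above background was 30, 25 and 25 on KO floating 1, 2 and 3 and 28 and 21 on KO adherent 1 and 2, against 21, 28 and 19 on WT floating 1, 2 and 3. The count was thus lowest on the 3 arrays with a high Cbx3 signal. Over all non-control spots, detection was 49.1%, 49.3% and 44.5% on WT floating 1, KO adherent 2 and WT floating 3. On the other arrays it was 47.5% to 55.4%, and its part in the counts was not tested.

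**Figure D1:**
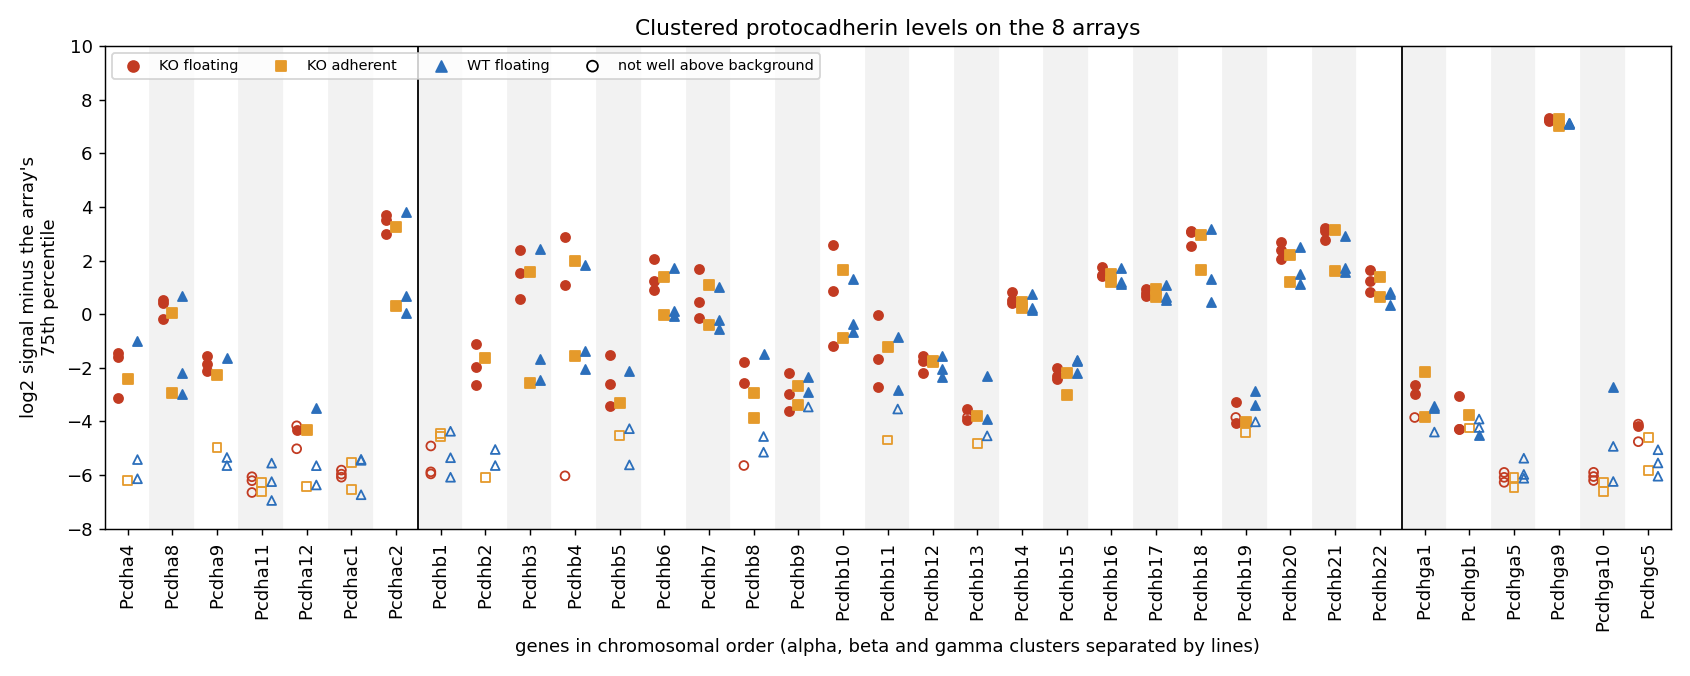
Log2 signal minus the array's 75th percentile (vertical axis) for the 35 genes in chromosomal order (horizontal axis). Each point is 1 array, coloured by its label, with open points not well above background. In the alpha genes with filled points and in Pcdhb3, 1 KO adherent point lies low with 2 WT points, and 1 WT point lies high with the other KO points.

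With all 8 arrays grouped as labelled, no clustered protocadherin passed the test between KO floating and WT floating neurospheres. Limma, with p-values adjusted over all 22705 features tested, called 0 of 25 tested members, where 0.0044% of all features were called, and the smallest adjusted p of a member was 0.814. At an unadjusted p under 0.05 there was 1 member, Pcdhb2, against 1.73% of all features. Pcdhb2 was detected on no WT array and was tested because it is high in KO. Its outlier spot on WT floating 2 was left out, so this p-value adds no separate support. The log2 difference was positive for 25 of the 35 genes, with a median of 0.58, against -0.06 over all features without a filter. The median was 1.76 for the alpha genes, 0.49 for the beta genes and 0.25 for the gamma genes, genes below background included. Within the slide's first row of arrays (KO floating 1 and 2, WT floating 1 and 2) the median over the 35 genes was 0.57. Within its second row, KO floating 3 against WT floating 3 alone, it was 0.63. P-values here measure the spread between these samples. Floating samples came from 1 embryo each per the design text, while a floating and an adherent KO sample may share one.

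The spread within the labelled groups was wide. Pcdhac2, a C-type gene and the last of the alpha cluster, averaged 3.40 ± 0.38 in KO floating and 1.51 ± 2.01 in WT floating neurospheres (SD, n = 3 each). The log2 difference was 1.89 (SE 1.09, limma adjusted p = 0.814). Pcdhb3 averaged 1.50 ± 0.92 in KO floating and -0.58 ± 2.63 in WT floating neurospheres (SD, n = 3 each). In both genes the wide WT spread came with the array WT floating 2, which lay at the KO level, as the values by array below show.

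The comparisons that involve the adherent culture also called no member. KO adherent against KO floating gave 0 of 25 tested members with limma, where 0% of all features were called and 1.12% had an unadjusted p under 0.05. The log2 difference was positive for 4 of 35 genes and its median was -0.37. KO adherent against WT floating gave 0 of 25 with limma, where 0.0044% of all features were called and 1.80% had an unadjusted p under 0.05, and a median of 0.07. Both comparisons share arrays with the first and rest on the 2 adherent arrays, which had opposite Cbx3 levels. Without the arrays KO adherent 2 and WT floating 2 the medians were -0.05 for KO adherent against KO floating and 0.88 for KO adherent against WT floating.

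Without those 2 arrays the KO and WT arrays separated in the alpha cluster and in stretches of the beta cluster. The 4 remaining KO arrays (KO floating 1 to 3 and KO adherent 1) were set against WT floating 1 and 3, which cannot tell culture from genotype for KO adherent 1. Limma called 10 of 23 tested members, all higher in KO and none lower, where 17.3% of all features tested were called, 8.95% higher and 8.34% lower. The 10 were 4 of 4 tested alpha genes, 6 of 18 tested beta genes and 0 of 1 tested gamma gene. Of the 23, 6 passed the detection filter through the KO arrays only and were tested because they are high there, namely Pcdha4, Pcdha9, Pcdhb2 and Pcdhb5, detected on neither WT array, and Pcdhb9 and Pcdhb11, detected on WT floating 1. Among the 16 members above background on every array, limma called 7, all higher, where 17.9% of such features were called and 7.82% called higher. The count of 10 was 3 without WT floating 3, 5 without KO adherent 1 and 4 without the filter on dim probes, where 2.73%, 2.14% and 0.364% of all features were called. In bulk samples fewer cells of a type and less RNA per cell cannot be told apart.

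Over the 16 members above background on every array the median log2 difference, KO minus WT, was 1.08, against -0.10 over all features above it on every array. It was 2.89 for the 2 alpha genes, 1.02 for the 13 beta genes and 0.15 for Pcdhga9, and a difference between clusters was not tested. Over all 35 genes, of which many were below background on WT arrays, the median was 1.02, against -0.23 over all features without a filter, and 0.45 with normexp background correction. It was positive for 27 genes. Within the slide's first row (KO floating 1 and 2 against WT floating 1) the median over the 35 genes was 1.25. Within its second row (KO floating 3 and KO adherent 1 against WT floating 3) it was 0.67. All 10 called genes had every KO array above every WT array, but they were selected by a test on these same arrays, so this adds no support. Among the 16 members above background on every array, 11 did not overlap, all higher in KO, where 52.6% of such features did not overlap and 21.6% did so with KO higher. Over all 23 tested members, including those that passed through the KO arrays only, it was 16, where 53.4% of all features did not overlap and 24% did so with KO higher.

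**Figure D2:**
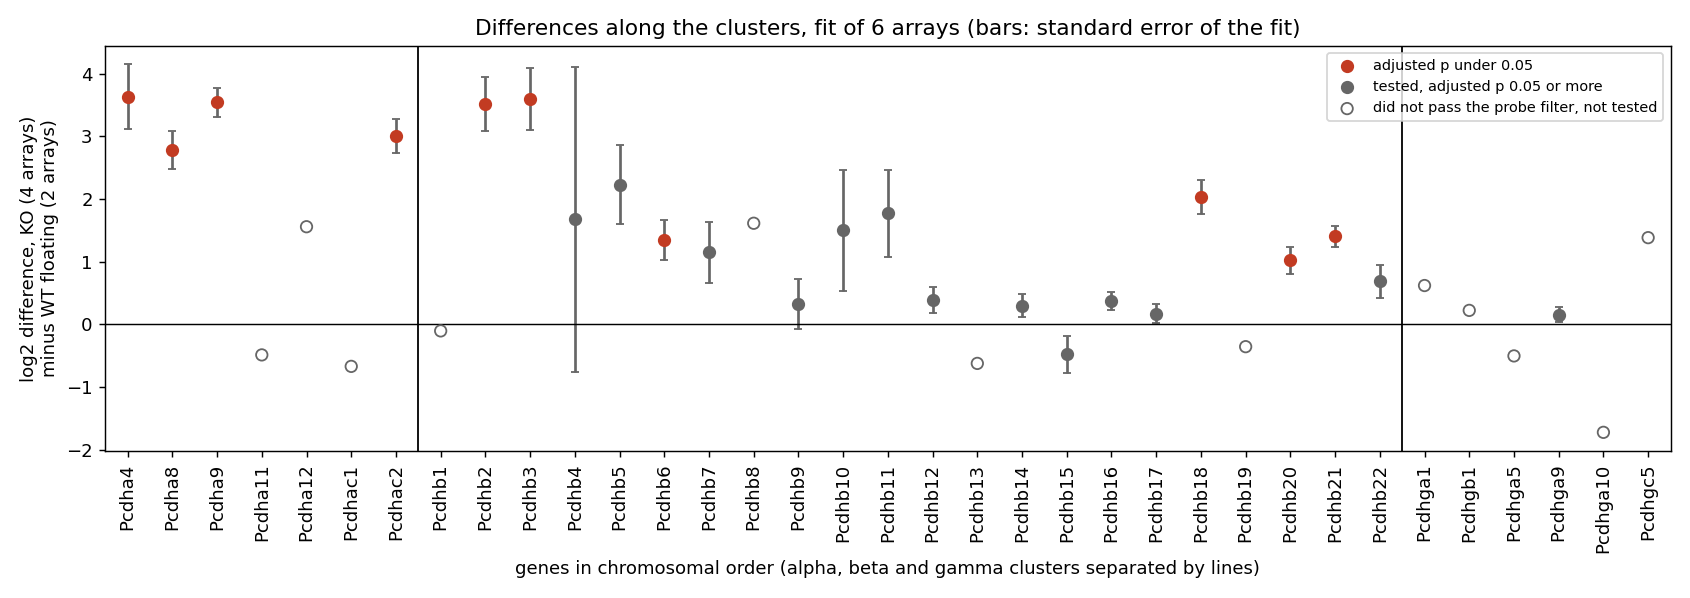
Log2 difference of 4 KO arrays minus 2 WT floating arrays (vertical axis) for the 35 genes in chromosomal order (horizontal axis), with the standard error of the limma fit for tested genes. Red points passed an adjusted p of 0.05, grey points did not and open points were not tested. The red points lie in the alpha cluster and at both sides of the beta cluster, and the interval of Pcdhb4 is the widest.

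In the alpha cluster the called genes were Pcdhac2 and Pcdha8, measured on every array, and Pcdha4 and Pcdha9, for which the difference is a bound. Pcdhac2 had levels of 3.52, 3.70 and 2.97 on KO floating 1, 2 and 3 and of 3.27 and 0.29 on KO adherent 1 and 2, against 0.04, 3.80 and 0.68 on WT floating 1, 2 and 3. Every array with a low Cbx3 signal lay at 2.97 or above and every array with a high one at 0.68 or below. Without the 2 arrays the log2 difference was 3.00 (SE 0.27, limma adjusted p = 0.00637). Pcdha8, an alternate alpha isoform, had levels of 0.40, 0.53 and -0.18 on KO floating 1, 2 and 3 and of 0.03 and -2.95 on KO adherent 1 and 2, against -2.99, 0.66 and -2.19 on WT floating 1, 2 and 3. The high and low arrays were the same as for Pcdhac2. The log2 difference was 2.78 (SE 0.30, limma adjusted p = 0.00917).

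The other 2 called alpha genes were below background on WT floating 1 and 3. Pcdha9 had levels of -2.11, -1.87 and -1.56 on KO floating 1, 2 and 3 and of -2.27 and -4.98 on KO adherent 1 and 2, against -5.65, -1.62 and -5.34 on WT floating 1, 2 and 3. It was not well above background on KO adherent 2, WT floating 1 and WT floating 3, so the 4 KO arrays were at least 3.62-fold higher. The limma adjusted p of 0.00254 belongs to the measured log2 difference of 3.54, not to this bound. Pcdha4 had levels of -1.44, -1.58 and -3.14 on KO floating 1, 2 and 3 and of -2.42 and -6.22 on KO adherent 1 and 2, against -6.14, -1.01 and -5.42 on WT floating 1, 2 and 3. It was below background on the same 3 arrays and at least 3.16-fold higher in KO. Its limma adjusted p of 0.0142 belongs to the measured log2 difference of 3.63. In these bounds a WT array counts with its detection limit (the lowest signal well above background there) where the probe is dimmer than that. That limit is not strict. On WT floating 1 it was -4.14, while Pcdhb19 was not well above background there at -4.01. The bounds here and below are therefore approximate. The measured differences rest on WT signals below background. Pcdha4 and Pcdha9 were tested because they are high in KO, so their p-values add no separate support.

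The alpha probes did not all behave alike. Pcdha12 was above background on KO floating 1, KO adherent 1 and WT floating 2 only, and did not pass the filter in this comparison. Pcdha11 stayed below background on all 8 arrays. Centred on their own means, the levels of Pcdha8 and Pcdhac2 differed by at most 0.25 on any of the 8 arrays, while Pcdha8 itself ranged over 3.65. A second probe of each gene gave other values. The second Pcdhac2 probe was above background on no array, and its log2 difference of 0.65 was not tested. The second Pcdha8 probe was above background on KO floating 1 and WT floating 2 only, with an untested difference of 1.14. Given the shared 3′ end of the cluster, the values of the brighter probes cannot be assigned to single isoforms.

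The 5 C-type genes had measured and unmeasured members. Pcdhac2 is described above. Pcdhac1, the neighbouring C-type gene of the alpha cluster, was below background on every array, with levels between -6.73 and -5.41. Pcdhgc5, the last gamma gene, had levels of -4.17, -4.75 and -4.10 on KO floating 1, 2 and 3 and of -4.61 and -5.84 on KO adherent 1 and 2, against -6.04, -5.05 and -5.55 on WT floating 1, 2 and 3. It was well above background on KO floating 1 only and was not tested. Pcdhgc3 and Pcdhgc4 had no matched probe and are not analysed here. No shared behaviour of the C-type genes could be measured, since 1 of the 5 was detected on more than 1 array.

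In the beta cluster the called genes were Pcdhb2, Pcdhb3 and Pcdhb6 near its start and Pcdhb18, Pcdhb20 and Pcdhb21 near its end. Pcdhb3, read from 10 spots of 1 probe, had levels of 1.54, 2.40 and 0.56 on KO floating 1, 2 and 3 and of 1.55 and -2.55 on KO adherent 1 and 2, against -1.69, 2.42 and -2.47 on WT floating 1, 2 and 3. It was positive on the 5 arrays with a low Cbx3 signal and negative on the other 3. Without the 2 arrays the log2 difference was 3.59 (SE 0.50, limma adjusted p = 0.0140). Pcdhb6 had levels of 1.23, 2.05 and 0.89 on KO floating 1, 2 and 3 and of 1.39 and -0.03 on KO adherent 1 and 2, against 0.13, 1.73 and -0.05 on WT floating 1, 2 and 3. The same 5 arrays were above the same 3, with a log2 difference of 1.35 (SE 0.32, limma adjusted p = 0.0388).

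Pcdhb2 was detected on 4 arrays, all labelled KO. Its levels were -1.97, -1.10 and -2.63 on KO floating 1, 2 and 3 and -1.62 and -6.10 on KO adherent 1 and 2, against -5.04 and -5.64 on WT floating 1 and 3. The 4 KO arrays other than KO adherent 2 were at least 3.94-fold higher than WT floating 1 and 3. The limma adjusted p of 0.0113 belongs to the measured log2 difference, and Pcdhb2 was tested because it is high in KO. Its spot on WT floating 2 carried an outlier flag and was left out. In the authors' deposited table that spot has a level of 8.23, above its level on every other array. The comparison of all 8 arrays thus has 2 WT values for this gene, in place of 3.

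The 3 called genes near the end of the cluster were detected on every array. Pcdhb18 had levels of 3.08, 3.04 and 2.56 on KO floating 1, 2 and 3 and of 2.93 and 1.63 on KO adherent 1 and 2, against 1.30, 3.16 and 0.45 on WT floating 1, 2 and 3. Its log2 difference was 2.03 (SE 0.28, limma adjusted p = 0.0137). Pcdhb21 had levels of 2.76, 3.20 and 3.11 on KO floating 1, 2 and 3 and of 3.14 and 1.62 on KO adherent 1 and 2, against 1.72, 2.92 and 1.57 on WT floating 1, 2 and 3. In both genes KO adherent 2 lay with WT floating 1 and 3 rather than with the other KO arrays. The log2 difference of Pcdhb21 was 1.40 (SE 0.17, limma adjusted p = 0.0108). Pcdhb20 had levels of 2.06, 2.70 and 2.39 on KO floating 1, 2 and 3 and of 2.20 and 1.21 on KO adherent 1 and 2, against 1.13, 2.50 and 1.50 on WT floating 1, 2 and 3. The same arrays were high and low, with a log2 difference of 1.02 (SE 0.22, limma adjusted p = 0.0336).

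Differences were uneven along the beta cluster, and the stretches were drawn after the values were seen, so they have no test. Over all features tested, 17.3% were called, and the counts per stretch are too small to set against that share. From Pcdhb2 to Pcdhb11 the median log2 difference was 1.64, between 0.32 in Pcdhb9 and 3.59 in Pcdhb3, and 3 of 9 tested genes passed. From Pcdhb12 to Pcdhb17 the median was 0.24, between -0.62 in Pcdhb13 and 0.39 in Pcdhb12, and 0 of 5 tested genes passed. From Pcdhb18 to Pcdhb22 the median was 1.02, between -0.35 in Pcdhb19 and 2.03 in Pcdhb18, and 3 of 4 tested genes passed. Pcdhb14, Pcdhb16 and Pcdhb17, in the middle stretch, were above background on every array, with differences of 0.30, 0.37 and 0.17. Pcdhb2, Pcdhb5 and Pcdhb8 entered the first stretch with WT values below background. Pcdhb4 entered it at 1.67, with a spot in a defective area of KO floating 3 described below, and stood at 3.67 with that area left out. Across the 13 beta genes above background on every array, which share arrays and are not independent, Spearman's rho of position with the difference was -0.24. Too few alpha and gamma genes were detected for such a value.

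The tested gene with the largest change opposite to its cluster was Pcdhb15. Its levels were -2.42, -2.02 and -2.31 on KO floating 1, 2 and 3 and -3.03 and -2.18 on KO adherent 1 and 2, against -1.76, -1.69 and -2.18 on WT floating 1, 2 and 3. KO and WT arrays overlapped without the 2 arrays, and the log2 difference was -0.47 (SE 0.30, limma adjusted p = 0.279). Pcdhb5, which passed the filter through the KO arrays only, missed the threshold (limma adjusted p = 0.0557 for the measured difference). As a bound, KO was at least 2.13-fold higher.

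The array KO floating 3 stood apart in the first beta stretch. It had the lowest level of the 4 KO arrays in 9 of the 10 genes from Pcdhb2 to Pcdhb11, in 2 of the 11 genes from Pcdhb12 to Pcdhb22 and in 21.3% of all features tested. For 1 of these genes a defect of the array was found at its spot. Pcdhb4 had levels of 1.07, 2.86 and -6.03 on KO floating 1, 2 and 3 and of 1.97 and -1.57 on KO adherent 1 and 2, against -2.03, 1.82 and -1.38 on WT floating 1, 2 and 3. Its spot on KO floating 3 lay in an area of that array where 52.4% of nearby spots, bright on the other 7 arrays, had lost their signal. Such lost spots numbered 157 on KO floating 3 and 0 or 1 on each other array.

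With that area left out, a step added after seeing the data, Pcdhb4 averaged 1.97 ± 0.89 on 3 KO arrays (SD) and its log2 difference was 3.67 (SE 0.54, limma adjusted p = 0.0173), in place of 1.67 (SE 2.43, limma adjusted p = 0.633). The count of called members was then 11, where 18.5% of all features were called. Pcdhb17 and the second Pcdha8 probe also had spots there. The spots of Pcdhb8 and Pcdhb10 lay outside the area, and whether single spots outside it had also lost signal was not tested. Pcdhb10 had levels of 0.87, 2.59 and -1.19 on KO floating 1, 2 and 3 and of 1.66 and -0.88 on KO adherent 1 and 2, against -0.66, 1.31 and -0.37 on WT floating 1, 2 and 3. KO floating 3 was its lowest array of all, and its log2 difference of 1.50 had a limma adjusted p of 0.291. With KO floating 3 left out altogether, 15 of 25 tested members were called, where 22.9% of all features were called. The added ones were Pcdhb4, Pcdhb7, Pcdhb8, Pcdhb10 and Pcdhb11, of which Pcdhb8 and Pcdhb11 passed the filter through the KO arrays only.

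**Figure D3:**
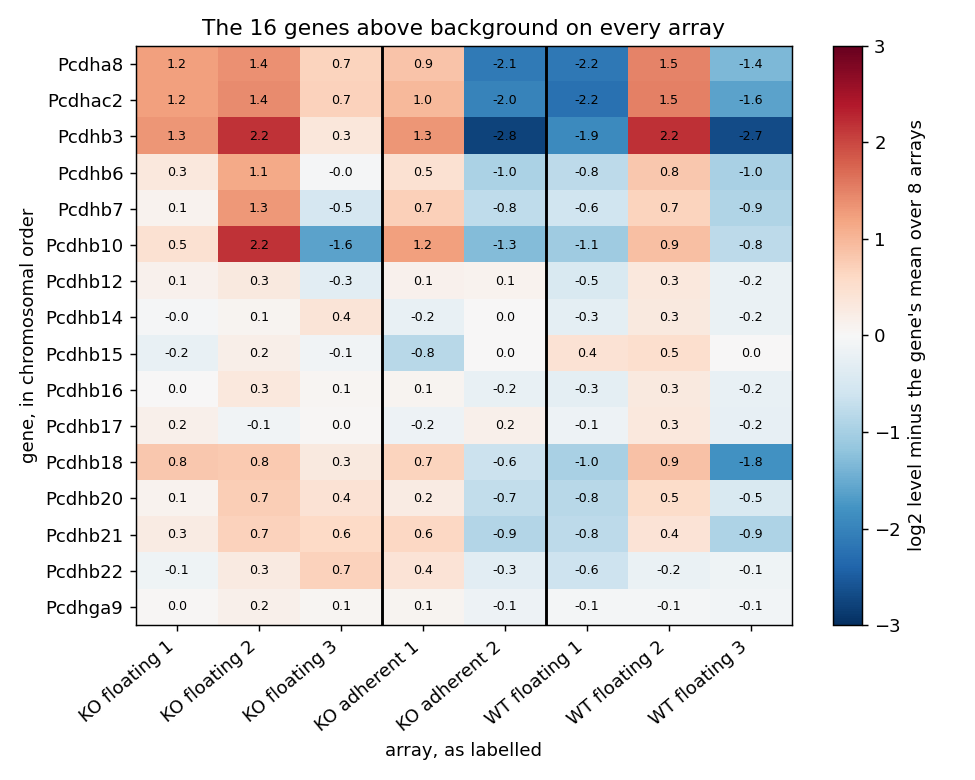
Level minus the gene's own mean over 8 arrays (colour and printed value, log2) for the 16 genes above background on every array (rows, in chromosomal order), with arrays as labelled in columns. Pcdha8, Pcdhac2 and Pcdhb3 are high on KO floating 1 to 3, KO adherent 1 and WT floating 2, and Pcdhga9 varies least.

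In the gamma cluster no gene passed the test. Pcdhga9 was its only member above background on every array, with levels of 7.20, 7.33 and 7.23 on KO floating 1, 2 and 3 and of 7.26 and 7.03 on KO adherent 1 and 2, against 7.11, 7.11 and 7.09 on WT floating 1, 2 and 3. All 8 values lay within 0.30 of each other, and the log2 difference without the 2 arrays was 0.15 (SE 0.12, limma adjusted p = 0.370). Its second probe gave 0.42 with a limma adjusted p of 0.0941 when every probe was fitted. Because gamma genes share their 3′ end, the signal of either probe cannot be assigned to Pcdhga9 alone.

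The other gamma genes were near the detection limit. Pcdhga1 had levels of -2.99, -3.85 and -2.65 on KO floating 1, 2 and 3 and of -3.83 and -2.15 on KO adherent 1 and 2, against -3.51, -3.43 and -4.40 on WT floating 1, 2 and 3, and the groups overlapped. Pcdhgb1 had levels of -4.28, -4.29 and -3.04 on KO floating 1, 2 and 3 and of -3.77 and -4.24 on KO adherent 1 and 2, against -4.23, -4.52 and -3.91 on WT floating 1, 2 and 3. These groups overlapped too. Pcdhga10 was above background on WT floating 3 only, at -2.70. In the comparison of 4 KO with 2 WT arrays none of these 3 genes passed the filter, and Pcdhga5 was not detected on any array.

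Floating KO and floating WT neurospheres alone, without the 2 arrays, gave fewer calls than the 4 KO arrays together. Limma called 1 of 28 tested members, Pcdha9, where 0.177% of all features were called, 0.0961% higher and 0.0807% lower. Pcdha9 was below background on WT floating 1 and 3 and was tested because it is high in KO, so the call adds no separate support. KO floating was higher by at least 3.90-fold, and the limma adjusted p of 0.0349 belongs to the measured log2 difference. Limma called 0 with a replicate block and 0 with a slide row block. It called 5 members without KO adherent 1, where 2.14% of all features were called. Without WT floating 1 it called 2, where 1.21% of all features were called, and 1 of them, Pcdhga10, was lower in KO and detected on WT floating 3 only. It called 0 without any one of KO floating 1, 2 or 3 or WT floating 3, where at most 0.0191% of all features were called. Among the 16 members above background on every array it called Pcdha8 and Pcdhac2, where 0.746% of such features were called and 0.498% called higher. The median log2 difference over the 35 genes was 1.01. It was 1.25 within the slide's first row (KO floating 1 and 2 against WT floating 1). Within its second row, KO floating 3 against WT floating 3 alone, it was 0.63.

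The 2 arrays left out were placed by levels that had no part in that comparison. WT floating 2 lay nearer the KO mean than the WT mean in 9 of the 9 called members with a value there, against 97.1% of all called features. KO adherent 2 lay nearer the WT mean in 10 of 10 called members, against 85.0% of all called features. Among all tested members it was 19 of 22 for WT floating 2 and 20 of 23 for KO adherent 2, against 77.6% and 72.3% of all tested features. On both arrays the shares among members lay near or above those among all features.

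In the comparison of 4 KO with 2 WT arrays, 17.3% of all features tested were called, 8.95% higher and 8.34% lower. Among 28 regulators of the clusters, with a median difference of -0.02, 1 was called. It was Dnmt3a, a DNA methyltransferase, with a log2 difference of 0.64 (SE 0.16, limma adjusted p = 0.0464). Ctcf, which encodes the factor that binds the promoters and enhancers of the clusters, had 0.52 (SE 0.17, limma adjusted p = 0.0740). Among 19 tested partners of the proteins, Nlgn1 was higher in KO by 0.55, and Adam10, a protease that cuts protocadherins, and Cyfip2, a subunit of the WAVE complex, were lower, at -0.84 and -0.72.

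Relatives and neighbours of the clusters are given next, from the same comparison, where 17.3% of all features tested were called. Of 8 tested non-clustered protocadherins, with a median of 0.67 and 6 positive differences, Pcdh7 was higher in KO by 1.46 and Pcdh1 lower, at -0.78. Of 11 tested classical cadherins, with a median of -0.24, Cdh11 was higher by 2.95, and Cdh19 and Cdh4 were lower, at -1.42 and -0.89. Of 15 tested genes within 500 kb of the clusters, with a median of -0.21, none was called higher, and Wdr55 and Tmco6 were lower, at -0.87 and -0.76 (limma adjusted p = 0.0179 and 0.0482). The other 13 did not pass the test, among them Hars2 with a difference of 0.67 and Hars with 0.52 (limma adjusted p = 0.0704 and 0.0652), Zmat2 with -0.21, Diaph1 with -0.22 and Taf7, which lies between the beta and gamma clusters, with 0.36. In the comparison of all 8 arrays no gene of these lists was called.

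Markers of cell types also differed between the 4 KO arrays and WT floating 1 and 3, and their part in the protocadherin differences was not tested. Over all features tested in that comparison, 17.3% were called, 8.95% higher and 8.34% lower. Each marker list was summed in multiples of the array's 75th percentile, which gives the brightest probes the most weight. Neuron markers reached 60.7 to 76.1 on the KO arrays and 82.2 to 88.0 on the WT arrays, with Nefl, Nefm and Stmn2 above background on none. Their median log2 difference was 0.04, with 5 of 10 tested positive. Of 14 neuron markers, 10 to 11 were above background on the KO arrays and 8 to 9 on the WT arrays. Of 10 tested neuron markers 3 were higher in KO, namely Tubb3, Rbfox3 and Dcx, and Ncam1 was lower. Dcx was below background on WT floating 1 and 3 and Rbfox3 on WT floating 3. These 2 genes passed the filter through the KO arrays only and were tested because they are high there, so their calls add no separate support. Oligodendrocyte lineage markers summed to 136.8 to 198.3 on the KO arrays and 50.8 to 52.8 on the WT arrays, with 4 of 8 called higher and 1 lower. Astrocyte markers summed to 184.5 to 309.2 on the KO arrays and 70.3 to 131.3 on the WT arrays, with 4 of 7 called higher and 1 lower. Neural stem cell markers summed to 664 to 979 on the KO arrays and 507 to 513 on the WT arrays, with 3 of 9 called higher and 2 lower. Microglia markers were low, at 15.98 to 27.2 on the KO arrays and 14.1 to 14.6 on the WT arrays, with Aif1, C1qa, Cx3cr1, Ptprc and Tyrobp above background on none. Endothelial markers summed to 8.11 to 11.5 on the KO arrays and 9.61 to 11.5 on the WT arrays, and Cdh5 and Cldn5 were above background on none. Meningeal fibroblast markers summed to 0.140 to 0.518 on the KO arrays and 0.298 to 0.406 on the WT arrays, and Lum and Pdgfrb were above background on none.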

How the data were processed

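The authors deposited 1 scanner file per array, with linear spot intensity made by Agilent Feature Extraction 11.0.1.1 per the file headers (version 9.1.3.1 per the submitters' processing notes). The deposited value table holds the same intensity: 100% of its probe values lay within 0.01% of the processed signal, so it is on a linear scale with no centring and no normalization between arrays. Here log2 of the processed signal minus each array's 75th percentile was used. Outlier spots were left out, and repeated spots averaged. Testing required a probe to be well above background throughout at least 1 group of arrays, and a gene's probe of highest mean represented it. Accessions of 27235 of 55681 probes matched gene names in RefSeq of GRCm38.p6. The array was designed on mm9, so no coordinates are given, and promoter or probe sequences were not used here.

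Tests used limma 3.58.1 in R 4.3.3 (two-sided) over all features, with Benjamini-Hochberg adjustment at 0.05, and were tested on simulated data. The 8-array fit had the 3 labelled groups. The 6-array fits left out KO adherent 2 and WT floating 2. The members, gene lists and tests were chosen with earlier results of these data known. Values on every array were planned for the C-type genes, the 3 genes of highest mean level per cluster, called genes (up to 12 per fit), the largest opposite change and disagreeing probes. Values by array for Pcdhb4 and Pcdhb10 were added after they were seen. Deviations from the group means of same-numbered floating arrays correlated at 0.104, 0.590 and 0.334 across genes. For 2 of 3 KO arrays a differently numbered WT array had more (0.346 for KO floating 3 with WT floating 1, 0.206 for KO floating 1 with WT floating 3). The WT means include WT floating 2, whose Cbx3 level went against its label, so these values cannot decide whether the arrays are paired.

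Alternatives were quantile normalization, other percentiles, normexp with an offset of 50, the authors' table, other filters, every probe, an intensity trend with robust eBayes, blocks and leaving out each array. Precision is limited by the number of arrays.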

Additional observations from a re-analysis of the deposited data

How the results depend on the processing

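The direction of all 10 called genes held under the alternatives run, of which the filter for detection on every array left 7 of them to test. Pcdhac2 and Pcdha8 were called in 17 of 17 alternative settings of the comparison of 4 KO with 2 WT arrays, Pcdha9 in 16 and Pcdhb20 in 11. Its count of 10 fell to 4 with no filter on dim probes, and leaving out 1 array gave 3 (without WT floating 3) to 15 (without KO floating 3), with 5 without KO adherent 1. Without WT floating 1, Pcdhga10 was called lower, a probe detected on WT floating 3 only. The median of 1.02 became 0.45 with normexp background correction. The replicate block gave 11 called members and the slide row block 9, where 19.2% and 12.8% of all features were called. Shares over all features were 0.36% with no filter on dim probes, 2.14% without KO adherent 1 and 22.9% without KO floating 3.

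For KO floating against WT floating without the 2 arrays, the count was 1, where 0.177% of all features were called. The count became 0 with no filter, where 0.0224% of all features were called. With the replicate block it was 0 and with the slide row block 0, where 0% of all features were called. It became 2 where probes had to be above background on every array, where 0.746% of such features were called. With only the arrays of the groups compared it was 5, where 2.14% of all features were called. An intensity trend and robust eBayes gave 7, where 1.74% of all features were called. Leaving out 1 array gave 0 to 5, and normexp a median of 0.49. With all 8 arrays the count of 0 for KO floating against WT floating became 1 without the 2 arrays, and stayed 0 with the replicate block in all 3 comparisons. The median of KO adherent against WT floating became 0.88 without them. Where 1 WT array remained, it was assumed to vary like the other arrays. The causes were not tested, apart from fewer arrays or more features in the fit. With 2 WT arrays and dim alpha and gamma probes, signal over background limits what could be tested.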
